A study of Homo sapiens with 18 samples.

Results

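The genes described here are 34 genes of glucose breakdown and of the transcriptional response to low oxygen: 21 of glucose uptake, glycolysis and lactate export, 2 that encode oxygen-regulated subunits of the hypoxia-inducible factor (HIF), and 11 others that are commonly induced under hypoxia. They were listed by name, and every probe set annotated to a member was collected. Each gene's brightest probe set, by its mean over all arrays, was used. Probe sets were found for 32 of the 34 members, and all 32 passed the filter on dim probe sets. They were read among 12537 tested genes of 19775 with a probe set. CA9, a carbonic anhydrase, and SLC16A3, a lactate exporter, have no probe set in the annotation used and were not analysed here. The 32 members had 70 probe sets, and 13 of them had only 1.

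The arrays were made from HCT116, an established human colorectal carcinoma line, and from clones of it that were targeted at IDH1 or IDH2. IDH1 encodes the isocitrate dehydrogenase of the cytosol and IDH2 a mitochondrial one, both NADP-dependent. There were 9 clones with 2 biological replicates each, which gave 18 one-colour Affymetrix arrays. The IDH2-mutant clones were 17H5 and 8G12, which carry IDH2 R140Q/+, and 47C2 and 45G3, which carry IDH2 R172K/+. The IDH1-mutant clones were 2H1 and 2C11, which carry IDH1 R132H/+, and 3A4, which carries IDH1 R132C/+. There were 2 wild-type references. The first, 16F8, was targeted with IDH1 R132C/+ but is labelled as lacking expression of that allele, with wild-type mRNA, and the other was the parental line. All cells were grown for 6 days without treatment, and the labels give the CO2 level and the temperature but no oxygen level. Each genotype is represented by 1 or 2 clones, so for IDH1 R132C the mutation and the single clone 3A4 cannot be told apart. The arrays do not distinguish a mutant from a wild-type allele, so they do not check the genotypes. The 2 replicates of a clone are labelled biological, so the tests between clones measure the spread between replicates of a clone.

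HIF is a transcription factor made of an oxygen-regulated alpha subunit, encoded by HIF1A or EPAS1, and the constant partner ARNT. When oxygen is ample, prolyl hydroxylases of the EGLN family mark the alpha subunits for destruction through VHL, and these hydroxylases use 2-oxoglutarate, the product of normal isocitrate dehydrogenase and the substrate from which mutant IDH makes 2-hydroxyglutarate. When HIF is active it raises transcription of glucose transporters, glycolytic enzymes, pH regulators, angiogenic factors and mitophagy receptors. Because the alpha subunits are controlled mainly as proteins, their mRNA level does not report HIF activity.

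HIF binds a short core, ACGTG or GCGTG, in the promoters and enhancers of its targets. The 250 bases before the transcription start are shown for 4 members, from RefSeq on GRCh38.p14 and each on the gene's strand, with every match of the core on either strand in capitals (CACGT and CACGC are the core read on the other strand). ALDOC, BNIP3 and DDIT4 are shown because they differed among the clones in different ways, and PGK1 because it did not differ on the probe set used. ALDOC is on the minus strand at chr17:28576896-28577145 and has 5 matches, BNIP3 is on the minus strand at chr10:131981924-131982173 and has 6, DDIT4 is on the plus strand at chr10:72273674-72273923 and has 3, and PGK1 is on the plus strand at chrX:78103998-78104247 and has 3. The run CACGTG holds the core on both strands and counts as 2 matches.

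ALDOC: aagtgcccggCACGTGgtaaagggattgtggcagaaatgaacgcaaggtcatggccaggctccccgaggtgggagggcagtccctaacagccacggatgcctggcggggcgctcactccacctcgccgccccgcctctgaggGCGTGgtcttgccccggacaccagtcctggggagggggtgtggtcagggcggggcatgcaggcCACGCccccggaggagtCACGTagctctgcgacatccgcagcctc
BNIP3: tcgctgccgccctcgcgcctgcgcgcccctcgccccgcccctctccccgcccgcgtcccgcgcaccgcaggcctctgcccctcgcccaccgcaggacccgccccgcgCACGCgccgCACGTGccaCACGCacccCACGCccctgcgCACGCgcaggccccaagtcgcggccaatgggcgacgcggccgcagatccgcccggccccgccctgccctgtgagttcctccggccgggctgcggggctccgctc
DDIT4: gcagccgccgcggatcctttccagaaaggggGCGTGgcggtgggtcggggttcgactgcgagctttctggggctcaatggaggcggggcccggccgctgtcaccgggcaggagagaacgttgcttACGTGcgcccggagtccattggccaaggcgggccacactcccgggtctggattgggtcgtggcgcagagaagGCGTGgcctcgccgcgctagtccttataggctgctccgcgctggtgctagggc
PGK1: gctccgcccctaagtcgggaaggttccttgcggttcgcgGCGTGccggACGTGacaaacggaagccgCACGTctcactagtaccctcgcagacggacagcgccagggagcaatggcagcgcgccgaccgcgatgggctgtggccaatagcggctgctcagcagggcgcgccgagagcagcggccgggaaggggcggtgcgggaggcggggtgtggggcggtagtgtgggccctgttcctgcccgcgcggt

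Windows of this kind were found for 30 of the 34 members, 58 in all, and BNIP3L, NDRG1, SLC2A3 and VEGFA had none in the table used. A match was present in 36 of the 58 windows (62.1%), against 43.2% of the 35116 windows of all genes. At least 1 window with a match was found for 27 of the 30 members. A gene with several windows has more chances of a match, and the share of all genes counted by gene was not computed. A match describes the letters only, and no array value bears on binding at it.

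The values are MAS5 signals, which measure the brightness of a probe set on a linear scale after the authors' processing, and differences are given on the scale of log2(signal + 2.2). The arrays had been scaled to 1 level, and array medians lay between 12.3 and 15.6. Correlations were 0.987 to 0.995 between replicates and 0.950 to 0.991 between clones. Spiked poly-A controls were higher in 4 arrays (8G12 replicate 2, 2C11 replicate 1, 16F8 replicate 1 and parental replicate 1, 7.03 to 7.28 on the log2 scale) than in the other 14 (5.80 to 6.59). The ratio of the 3' to the 5' control probe sets ran from 0.901 to 1.08 for GAPDH and from 1.59 to 2.35 for ACTB. Of 10 colon epithelial markers, EPCAM, CDH1, KRT8, KRT18, KRT19 and CDX2 passed the filter, while VIL1, CDX1, CEACAM5 and LGR5 averaged at most 5.02. Markers of other cells were mostly low. COL1A1 alone of 8 fibroblast markers passed the filter, with signals of 187 to 358.5, and the others averaged at most 8.25. LYZ and HBB of 6 measured blood cell markers passed the filter, and none of 5 endothelial markers did. The summed blood cell markers were highest in 2H1 (155), mostly through LYZ, and lowest in parental (27.7), and every blood cell marker that did not pass the filter, PTPRC among them, averaged at most 4.77. Of the tested markers, 5 of the 6 epithelial ones and 1 of the 2 blood cell ones, LYZ, differed among the 9 clones. LYZ was higher than in both references in all 3 IDH1-mutant clones, the clones with low ALDOC and HK2, and higher than in parental alone in 8G12, 47C2 and 45G3. The part of these markers in the member results was not tested.

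Across the 9 clones, 22 of the 32 members (68.8%) differed in limma's moderated F test with a Benjamini-Hochberg adjusted p under 0.05, against 52.4% of all genes tested. The members that differed most were the glucose transporter SLC2A3, with an 8.01-fold span between its highest and lowest clone, the brain-type aldolase ALDOC (4.78-fold), the angiogenic factor VEGFA (3.57-fold) and the carbonic anhydrase CA12 (3.49-fold). The members that differed least, on the probe sets used, were core enzymes: GPI, TPI1, PGK1 and ALDOA spanned 1.14-fold to 1.22-fold and did not pass the test. ENO1, PKM, LDHA, PFKFB3, BNIP3L and ANKRD37 did not pass either. The median span, as the highest minus the lowest clone mean on the log2 scale, was 1.15 for the 10 hypoxia-induced members outside glycolysis, 0.55 for the 20 of glucose uptake and glycolysis, 0.69 for all 32 members and 0.63 for all genes tested. Each array read RNA pooled from a whole culture, so less transcript per cell and fewer cells with the transcript cannot be told apart.

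**Figure D1:**
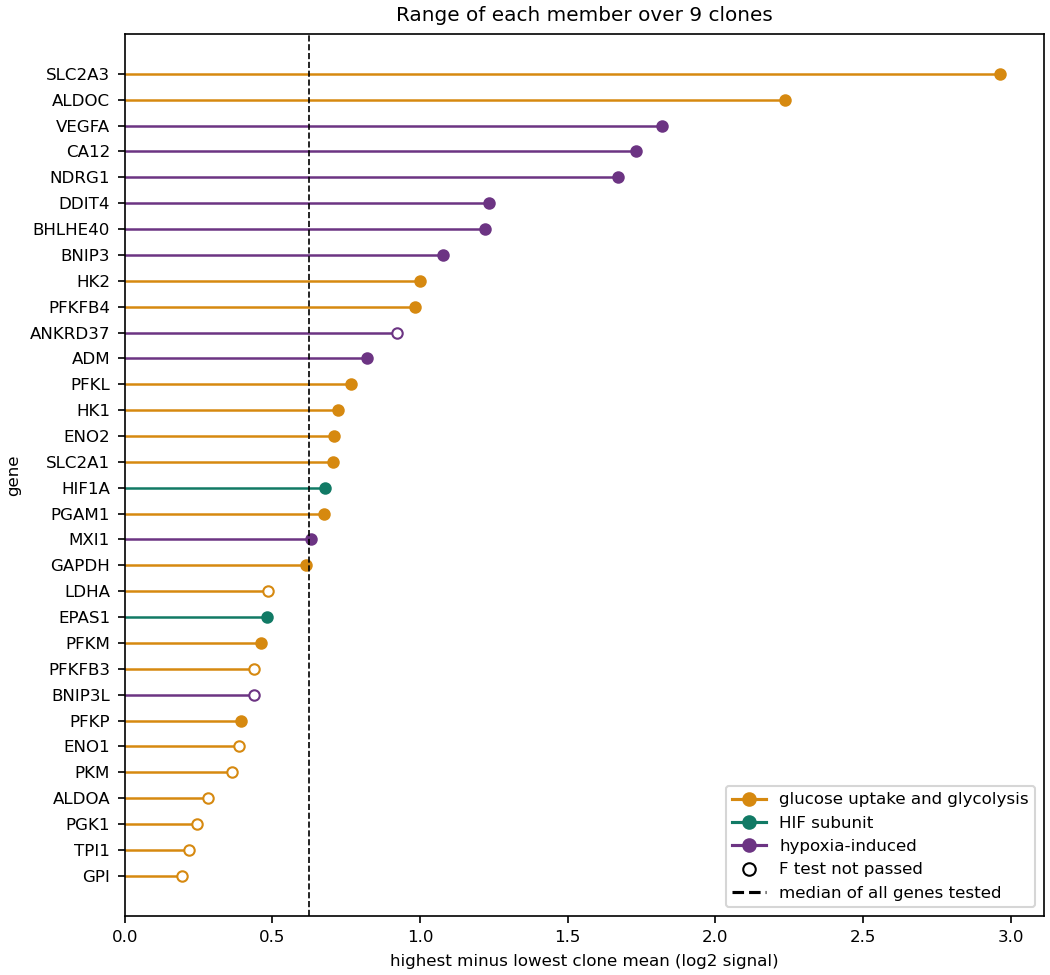
Range of each of the 32 members over the 9 clones, as the highest minus the lowest clone mean of log2 signal (n = 2 arrays a clone), coloured by role, with open circles for the 10 members that did not pass the F test and a dashed line at the median of all genes tested (0.63). SLC2A3 (2.96) and ALDOC (2.23) stand at the top, and GPI (0.19), TPI1 (0.22), PGK1 (0.25) and ALDOA (0.28) at the bottom.

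Each clone was then set against each wild-type reference, with the spread shared by all 18 arrays. Against parental, 77 of 256 member-by-clone tests passed (30.1%), against 25.5% of the tests of all genes. Against 16F8, 42 of 224 passed (18.8%), against 8.97% of the tests of all genes. Without 16F8 replicate 1 that count fell to 24, and with the poly-A level as a covariate, an alternative added after seeing the data, it was 65. The 2 references differed from each other in 10 members (31.2% of the 32, against 22% of all genes): SLC2A1, ALDOC, PFKFB4, ENO2, CA12, ADM and BNIP3 were higher in 16F8 than in parental, and VEGFA, DDIT4 and BHLHE40 were lower in 16F8. These 10 differences from parental were found in a targeted clone whose mRNA is labelled wild-type. The means of all 8 targeted clones lay above parental for CA12, ENO2, GPI, PFKFB3, PFKFB4, PGAM1 and SLC2A1 and below it for BHLHE40 and MXI1, 9 members against 38.7% of all genes.

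Members past the threshold are counted by role, where glycolysis includes glucose uptake, and the percent in parentheses is that of all genes tested called in the same way. Against parental, the members called in 17H5 numbered 5 (11.9%), with 3 of glycolysis and 2 hypoxia-induced higher (6.89%) and 0 lower (4.97%). Those in 8G12 were 8 (18.5%), with 5 of glycolysis and 2 hypoxia-induced higher (11.4%) and 1 hypoxia-induced lower (7.05%). In 47C2 they were 8 (28%), with 3 of glycolysis, 1 HIF subunit and 1 hypoxia-induced higher (14.2%) and 3 hypoxia-induced lower (13.8%). Those in 45G3 were 10 (29.8%), with 4 of glycolysis and 2 hypoxia-induced higher (15.1%) and 4 hypoxia-induced lower (14.7%). In 2H1 they were 14 (31%), with 5 of glycolysis and 2 hypoxia-induced higher (14.7%) and 2 of glycolysis and 5 hypoxia-induced lower (16.3%). Those in 2C11 were 11 (25.9%), with 1 of glycolysis and 2 hypoxia-induced higher (13.4%) and 3 of glycolysis and 5 hypoxia-induced lower (12.5%). In 3A4 they were 11 (37.2%), with 3 of glycolysis and 1 hypoxia-induced higher (17.6%) and 4 of glycolysis and 3 hypoxia-induced lower (19.6%). Those in 16F8 were 10 (22%), with 4 of glycolysis and 3 hypoxia-induced higher (12.4%) and 3 hypoxia-induced lower (9.57%). Among the glycolysis calls against parental, both directions occurred in each of the 3 IDH1-mutant clones, and every call in the 4 IDH2-mutant clones and in 16F8 was higher.

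Against 16F8, the members called in 17H5 numbered 6 (8.55%), with 1 of glycolysis and 3 hypoxia-induced higher (4.42%) and 1 of glycolysis and 1 hypoxia-induced lower (4.13%). Those in 8G12 were 1 (0.63%), with 1 of glycolysis higher (0.526%) and 0 lower (0.104%). In 47C2 they were 6 (6.41%), with 0 higher (2.28%) and 3 of glycolysis and 3 hypoxia-induced lower (4.13%). Those in 45G3 were 1 (2.17%), with 1 of glycolysis higher (0.949%) and 0 lower (1.22%). In 2H1 they were 7 (16.5%), with 1 HIF subunit higher (6.44%) and 4 of glycolysis and 2 hypoxia-induced lower (10%). Those in 2C11 were 6 (2.26%), with 0 higher (0.981%) and 4 of glycolysis and 2 hypoxia-induced lower (1.28%). In 3A4 they were 15 (26.3%), with 2 of glycolysis and 3 hypoxia-induced higher (10.3%) and 8 of glycolysis and 2 hypoxia-induced lower (16%). The glycolysis members called against 16F8 ran in both directions in 17H5 and 3A4, higher in 8G12 and 45G3, and lower in 47C2, 2H1 and 2C11.

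Both comparisons share the arrays of the mutant clone. Passing against both references with the same sign were 1 member each in 17H5 (1.31% of all genes), 8G12 (0.263%), 47C2 (3.72%) and 45G3 (1.5%), 3 in 2H1 (9.87%), 4 in 2C11 (1.58%) and 8 in 3A4 (16.2%). These were SLC2A3 in 5 clones, HK2 and ALDOC in 3 each, MXI1 in 2, and NDRG1, BNIP3, PFKL, GAPDH, PGAM1 and CA12 in 1 each. On the probe sets used, ALDOA, BNIP3L, GPI, HK1, LDHA, PGK1, PKM and TPI1 passed in no mutant clone against either reference.

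**Figure D2:**
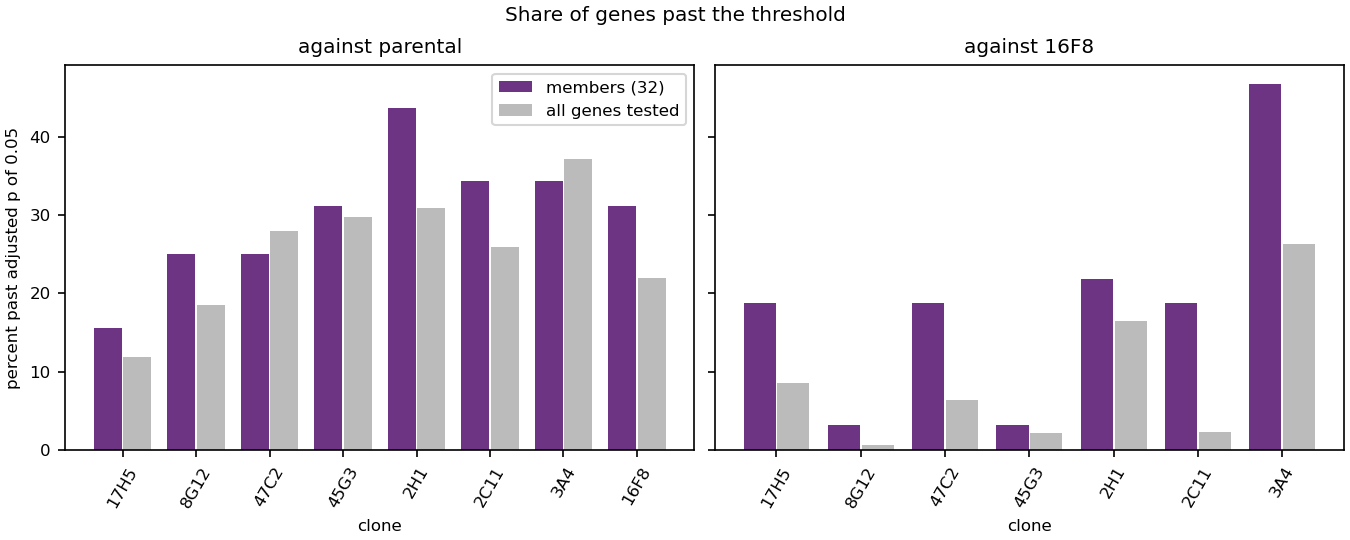
Percent of genes past an adjusted p of 0.05 in each clone against parental (left) and against 16F8 (right), for the 32 members (dark bars) and all 12537 genes tested (grey bars). The highest share of members was 46.9%, in 3A4 against 16F8, where all genes stood at 26.3%.

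**Figure D3:**
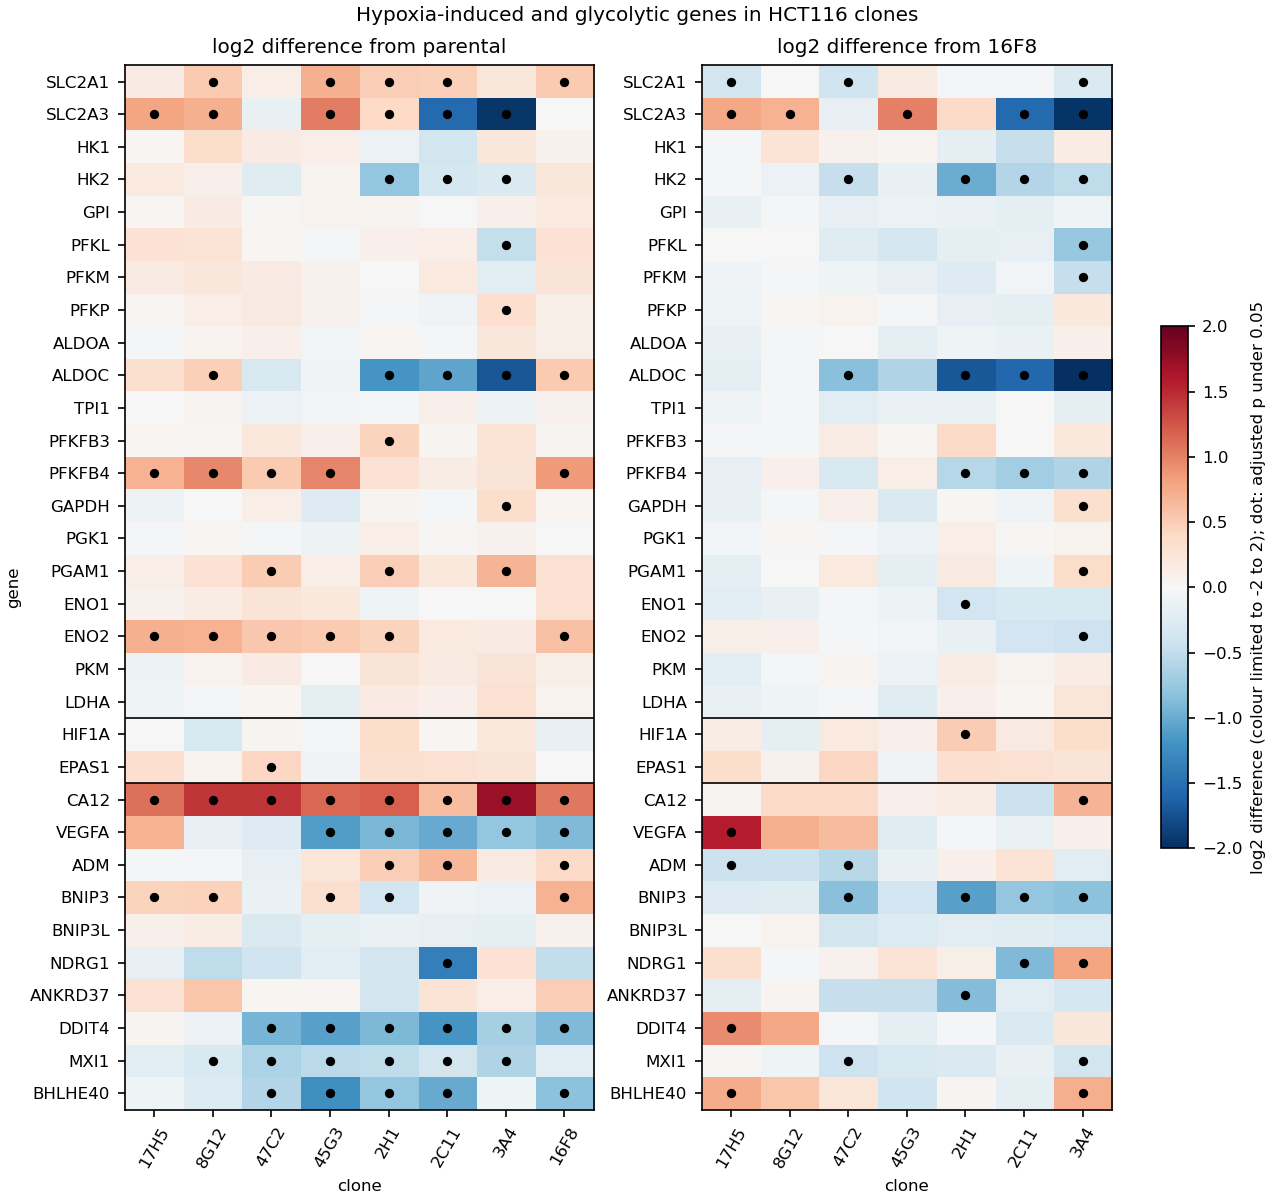
Log2 difference of each member in each clone from parental (left panel, 8 clones) and from 16F8 (right panel, 7 mutant clones), with a dot where the adjusted p was under 0.05 and lines between the 20 genes of glucose uptake and glycolysis, the 2 HIF subunits and the 10 hypoxia-induced genes. SLC2A3 has dots on red and on blue cells in both panels, and the row of CA12 is red against parental in all 8 clones.

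Glucose enters cells through facilitative transporters, of which SLC2A1 (GLUT1) is the common one and SLC2A3 (GLUT3) a high-affinity form. SLC2A3 had signals of 559 and 641 in 17H5, 552 and 584 in 8G12, 297 and 326 in 47C2 and 770.4 and 642 in 45G3. In the IDH1-mutant clones it had 430.3 and 479.7 in 2H1, 134 and 102 in 2C11 and 87.2 and 89.2 in 3A4, and in the references 363 and 334 in 16F8 and 352 and 341 in parental. It was high in 17H5, 8G12 and 45G3 and low in 2C11 and 3A4. The arrays of 2H1 lay above and those of 47C2 just below the 4 reference arrays, and no mutant clone overlapped them. Against parental, SLC2A3 rose in 45G3 (1.02 ± 0.13, adjusted p = 3.03e-05), 17H5 (0.79 ± 0.13, adjusted p = 0.00105) and 8G12 (0.71 ± 0.13, adjusted p = 0.00128), as log2 difference ± SE. It fell by 1.55 ± 0.13 in 2C11 (adjusted p = 3.27e-07) and by 1.95 ± 0.13 in 3A4 (1.3e-08). Against 16F8 the same 5 clones passed, with 0.78 in 17H5 (0.00157), 0.70 in 8G12 (0.0162), 1.01 in 45G3 (0.000314), -1.56 in 2C11 (1.84e-06) and -1.95 in 3A4 (1.35e-08), adjusted p in parentheses. 2H1 passed only against parental (0.39 ± 0.13, adjusted p = 0.0342).

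SLC2A3 also differed between clones of 1 genotype, as between both R132H clones (2H1 minus 2C11: 1.94 ± 0.13, adjusted p = 4.91e-08) and between both R172K clones (47C2 minus 45G3: -1.17 ± 0.13, adjusted p = 7.62e-05). The 3 SLC2A3 probe sets had the same sign in every mutant clone against parental: the differences were -1.95, -1.45 and -1.57 in 3A4 and 1.02, 1.24 and 1.37 in 45G3. SLC2A3 resembles SLC2A14, and a pair of further probe sets annotated to both genes was left out. Whether the 3 used here also read SLC2A14 was not tested. The rise in 2H1 against parental was lost without either array of 2H1 or parental (adjusted p 0.0597 to 0.209). That in 8G12 against 16F8 was lost without either array of 8G12 or 16F8 (adjusted p 0.067 to 0.188) and with the mean of all probe sets (0.0996).

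SLC2A1 had 814 and 834 in 17H5, 1101 and 1009 in 8G12, 765 and 846 in 47C2 and 1234 and 1167 in 45G3. It had 1101 and 978 in 2H1, 1036 and 1019.7 in 2C11 and 839.8 and 889.9 in 3A4 in the IDH1-mutant clones. The references were at 1108 and 1016 in 16F8 and 751 and 719 in parental. Parental had the lowest mean of the 9 clones, and 16F8 lay among the higher ones. SLC2A1 rose against parental in 45G3 (0.71 ± 0.09, adjusted p = 3.54e-05), and likewise in 8G12 (0.52), 2H1 (0.50), 2C11 (0.48) and 16F8 itself (0.53). Against 16F8 it was higher in no clone and lower in 17H5 (-0.36 ± 0.09, adjusted p = 0.0229), 47C2 (-0.40 ± 0.09, adjusted p = 0.0164) and 3A4 (-0.29 ± 0.09, adjusted p = 0.0282). The fall in 17H5 was lost without either array of 17H5, or 16F8 replicate 1 (adjusted p 0.0978 to 0.171). The SLC2A1 fall in 47C2 was lost without 47C2 replicate 1 or 16F8 replicate 1 (adjusted p 0.165 to 0.208) and with the highest-variance probe set (0.107). That in 3A4 was lost without either array of 3A4, or 16F8 replicate 1 (adjusted p 0.0682 to 0.196). It was also lost with the highest-variance probe set or the mean of all probe sets (0.304 to 0.967). The second SLC2A1 probe set had a mean signal of 111. It lay above parental in all 8 targeted clones, by 0.36 in 17H5 up to 0.98 in 45G3. In 3A4 it gave 0.93 and in 47C2 0.46, where the one used gave 0.23 and 0.13.

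**Figure D4:**
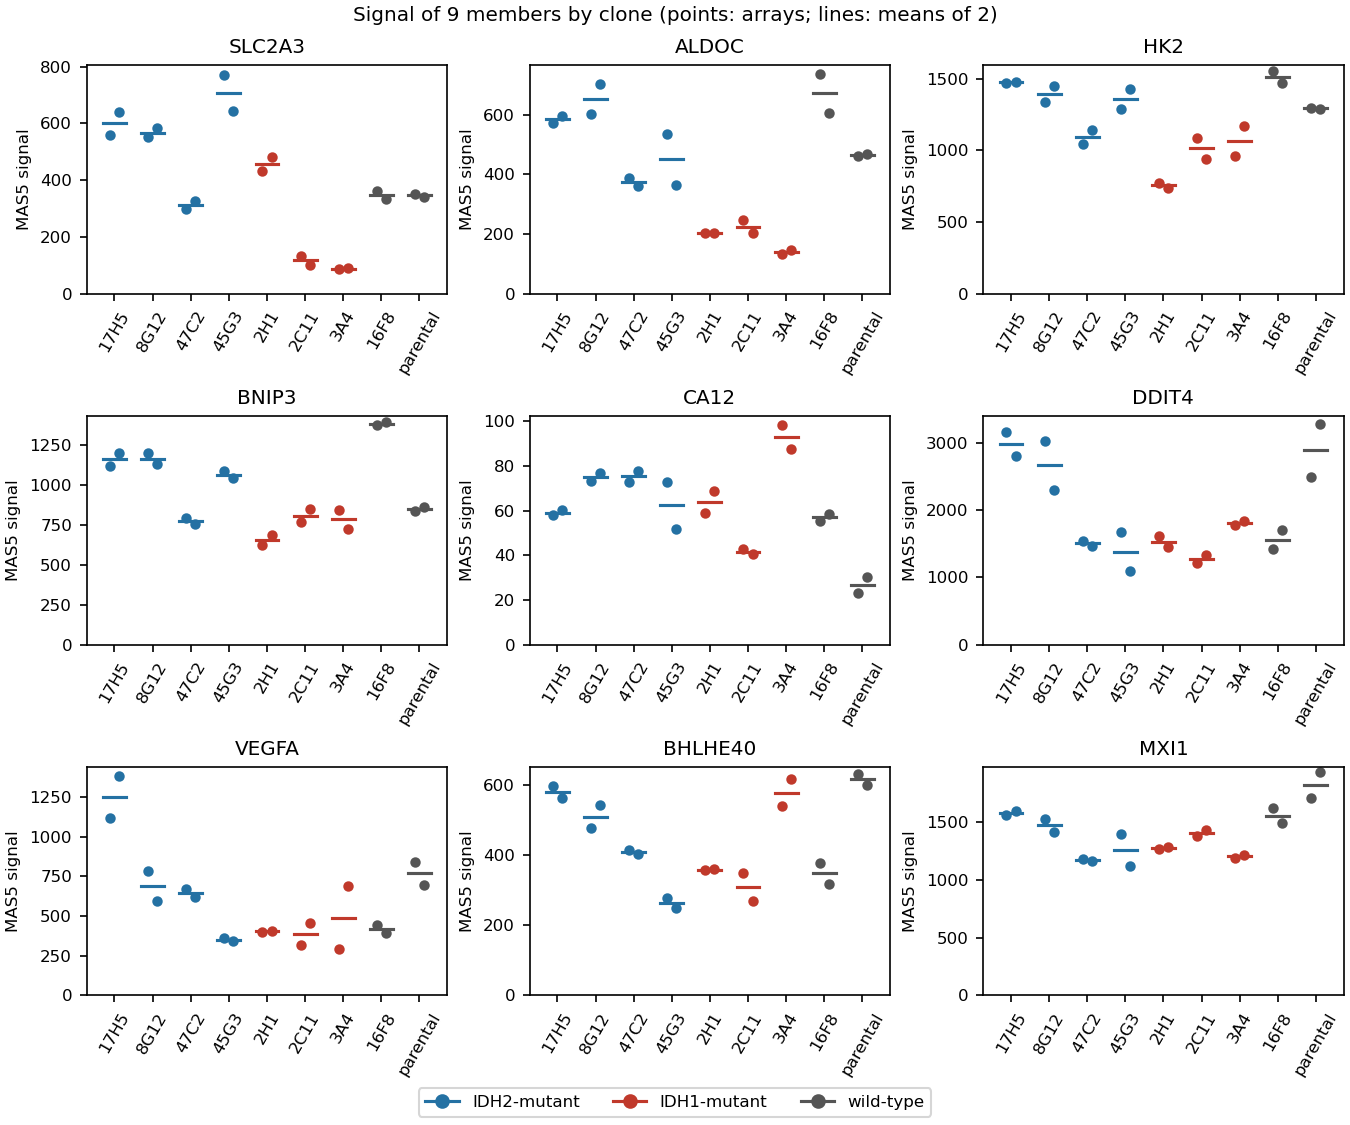
MAS5 signal of 9 members in each array (points, n = 2 a clone) with the clone mean (line), from 0 upward, for IDH2-mutant, IDH1-mutant and wild-type clones in that order. ALDOC lies between 134 and 246 in the 6 IDH1-mutant arrays, below all others, and CA12 is lowest in the parental arrays (23.0 and 30.4).

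Hexokinases phosphorylate glucose, and HK2 is the HIF-induced isoform. HK2 had 1473 and 1477 in 17H5, 1337 and 1446 in 8G12, 1044 and 1142 in 47C2 and 1287 and 1431 in 45G3. In the IDH1-mutant clones it had 774 and 736 in 2H1, 1087 and 939.8 in 2C11 and 960.2 and 1167 in 3A4, and the references had 1552 and 1469.8 in 16F8 and 1297 and 1287 in parental. All 6 IDH1-mutant arrays lay below the 4 reference arrays, and so did both arrays of 47C2. HK2 fell against both references in the 3 IDH1-mutant clones. In 2H1 the difference was -0.77 ± 0.11, adjusted p = 2.97e-05 against parental and -1.0 ± 0.11, adjusted p = 3.69e-06 against 16F8. In 2C11 it was -0.35 ± 0.11, adjusted p = 0.0195 against parental and -0.58 ± 0.11, adjusted p = 0.0048 against 16F8, and in 3A4 -0.29 ± 0.11, adjusted p = 0.041 against parental and -0.51 ± 0.11, adjusted p = 0.00171 against 16F8. 47C2 passed against 16F8 alone (-0.47 ± 0.11, adjusted p = 0.0122).

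These HK2 values come from the bright probe set (mean signal 1217), and the brighter of the other 2 (56.5) did not give all of them. In 2H1 the fall against parental kept passing under every alternative run, while that against 16F8 was lost with the highest-variance probe set (adjusted p 0.139). The call in 3A4 against parental was lost without either array of 47C2, 2H1 or parental, or 17H5 replicate 1 or 3A4 replicate 1 (adjusted p 0.0501 to 0.387) and with 5 other settings (0.0618 to 0.937). The HK2 fall in 2C11 against parental was lost without either array of parental, or 2C11 replicate 2 (adjusted p 0.0706 to 0.191) and with the highest-variance probe set or the mean of all probe sets (0.1 to 0.428). Against 16F8, that in 2C11 was lost without 2C11 replicate 2 or 16F8 replicate 1 (adjusted p 0.0602 to 0.101) and with the highest-variance probe set or the mean of all probe sets (0.307 to 0.85). The fall in 3A4 against 16F8 was lost with the highest-variance probe set or the mean of all probe sets (adjusted p 0.124 to 0.81). The fall in 47C2 against 16F8 was lost without 47C2 replicate 1 or 16F8 replicate 1 (adjusted p 0.114 to 0.158) and with the highest-variance probe set or the mean of all probe sets (0.431 to 0.939). With the highest-variance probe set HK2 differed from 16F8 by 0.10 in 3A4 and 0.41 in 47C2. HK1, the constitutive isoform, was highest in 8G12 (297) and lowest in 2C11 (179) and differed among the 9 clones (adjusted p = 0.0202), but in no mutant clone from either reference.

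Aldolases split fructose bisphosphate, and ALDOC is the isoform best known from brain. ALDOC had 574 and 594 in 17H5, 601 and 702 in 8G12, 387 and 359.7 in 47C2 and 534 and 366 in 45G3. It had 204 and 204 in 2H1, 246 and 203 in 2C11 and 134 and 147 in 3A4 in the IDH1-mutant clones, and 735 and 607 in 16F8 and 461 and 469 in parental in the references. The 6 IDH1-mutant arrays lay below all 12 other arrays. Against parental, ALDOC fell by 1.71 ± 0.15 in 3A4 (adjusted p = 2.77e-07), by 1.18 in 2H1 (1.65e-05) and by 1.05 in 2C11 (7.7e-05). Against 16F8, whose ALDOC level was itself higher than that of parental (0.52 ± 0.15, adjusted p = 0.0214), the differences were -1.70 in 2H1 (4.57e-07), -1.57 in 2C11 (7.79e-06) and -2.23 in 3A4 (1.32e-08). All 6 of these IDH1-mutant calls held under all 27 alternatives run, and ALDOC has 1 probe set. In the IDH2-mutant clones, ALDOC was higher than parental in 8G12 (0.48 ± 0.15, adjusted p = 0.0359) and lower than 16F8 in 47C2 (-0.84 ± 0.15, adjusted p = 0.0023). The 8G12 call was lost without either array of 8G12 or parental (adjusted p 0.052 to 0.216) and with 3 other settings (0.0501 to 0.064). That of 16F8 against parental was lost without either array of parental, or 16F8 replicate 1 (adjusted p 0.0771 to 0.176). That of 47C2 was lost without 16F8 replicate 1 (adjusted p 0.0501).

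Of the other enzymes of upper glycolysis, GPI, ALDOA and TPI1 did not pass the F test across the clones (adjusted p = 0.511, 0.357 and 0.347), while the phosphofructokinases PFKL, PFKM and PFKP did (adjusted p = 0.0318, 0.00628 and 0.0134). GPI, the glucose phosphate isomerase, was highest in 16F8 (1667) and lowest in parental (1456), ALDOA, the muscle-type aldolase, lay between 2163 in 45G3 and 2630.1 in 3A4, and TPI1, the triose phosphate isomerase, between 1840.4 in 47C2 and 2141 in 2C11. The dimmest TPI1 probe set, with a mean signal of 169, lay above parental in the targeted clones, from 0.24 in 2H1 to 0.79 in 8G12. The second brightest gave -0.07 in 47C2 to 0.21 in 16F8. Phosphofructokinase is the main control point of the pathway and has 3 isoforms. In 3A4 they were called in different directions. PFKL had 49.9 and 50.2 in 3A4, against 85.5 and 87.7 in 16F8 and 71.6 and 69.0 in parental, and it fell against 16F8 (-0.77 ± 0.18, adjusted p = 0.0047) and against parental (-0.47 ± 0.18, adjusted p = 0.0496). PFKM was lower in 3A4 than in 16F8 (-0.46 ± 0.09, adjusted p = 0.00116), with 1120 and 1094 in 3A4 and 1452 and 1601 in 16F8. PFKP was higher in 3A4 than in parental (0.33 ± 0.08, adjusted p = 0.00513), with 1523 and 1514 in 3A4 and 1164 and 1256 in parental. The calls for PFKL and PFKM against 16F8 held under every alternative run. PFKL against parental was lost without either array of 17H5, 47C2, 2C11, 3A4, 16F8 or parental (adjusted p 0.05 to 0.149) and with 6 other settings (0.05 to 0.0813). PFKP was lost without parental replicate 1 (adjusted p 0.0507) and with the mean of all probe sets (0.904). The second PFKL probe set, with a mean signal of 72.3, differed from parental by -0.27 in 3A4, -0.34 in 2H1 and -0.29 in 47C2. The PFKL probe set used gave -0.47, 0.10 and 0.04 in these clones.

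PFKFB3 and PFKFB4 make and remove the activator of phosphofructokinase. PFKFB4 had 91.5 and 103 in 17H5, 129.8 and 106 in 8G12, 85.1 and 87.4 in 47C2 and 125 and 114 in 45G3. It had 66.3 and 79.9 in 2H1, 60.4 and 72.5 in 2C11 and 73.5 and 69.1 in 3A4 in the IDH1-mutant clones, and 97.1 and 122 in 16F8 and 51.8 and 67.7 in parental in the references. The 4 IDH2-mutant clones and 16F8 had signals above 85, and the IDH1-mutant clones and parental lay below 80. Against parental, PFKFB4 was higher in 45G3 (0.98 ± 0.18, adjusted p = 0.000559), 8G12 (0.96 ± 0.18, adjusted p = 0.00111), 17H5 (0.69), 47C2 (0.53) and 16F8 (0.85). Against 16F8 it was lower in 2H1 (-0.57 ± 0.18, adjusted p = 0.0378), 2C11 (-0.70 ± 0.18, adjusted p = 0.0483) and 3A4 (-0.59 ± 0.18, adjusted p = 0.0197). PFKFB4 in 17H5 against parental was lost without 17H5 replicate 2 or parental replicate 1 (adjusted p 0.146 to 0.15). That in 47C2 was lost without either array of 47C2, or parental replicate 1 (adjusted p 0.119 to 0.253) and with no filter or the poly-A covariate (0.0585 to 0.0603). Of the falls against 16F8, that in 2H1 was lost without either array of 47C2 or 2H1, or 16F8 replicate 2 (adjusted p 0.054 to 0.255) and with no filter or the mean of all probe sets (0.063 to 0.278). The fall in 2C11 was lost without either array of 17H5, 47C2, 2H1, 2C11, 3A4 or 16F8 (adjusted p 0.0542 to 0.333) and with 4 other settings (0.0607 to 0.334). The PFKFB4 fall in 3A4 was lost without either array of 3A4, or 16F8 replicate 2 (adjusted p 0.0566 to 0.162) and with the mean of all probe sets (0.113).

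PFKFB3 passed in 2H1 against parental alone (0.44 ± 0.14, adjusted p = 0.0208), with 2142 and 2072 in 2H1 and 1354 and 1781 in parental. That call was lost without either array of 2H1, or parental replicate 1 (adjusted p 0.0701 to 0.264), and PFKFB3 did not pass the F test across clones (adjusted p = 0.12).

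Of the enzymes of lower glycolysis, ENO2 and PGAM1 carried most of the calls. ENO2, the enolase isoform of neurons, had 668 and 667 in 17H5, 671 and 649 in 8G12, 594 and 593 in 47C2 and 682 and 508 in 45G3. It had 509 and 604 in 2H1, 466 and 467 in 2C11 and 471 and 444 in 3A4 in the IDH1-mutant clones, and 619 and 605 in 16F8 and 412 and 402 in parental in the references. Parental was the lowest of the 9 clones in both arrays. ENO2 rose against parental in 17H5 (0.71 ± 0.12, adjusted p = 0.000942), 8G12 (0.69 ± 0.12, adjusted p = 0.000592), 47C2 (0.54), 45G3 (0.53), 2H1 (0.44) and 16F8 (0.59 ± 0.12, adjusted p = 0.002). Against 16F8 it passed in 3A4 alone, as lower (-0.42 ± 0.12, adjusted p = 0.015). The ENO2 call in 2H1 was lost without 2H1 replicate 2 (adjusted p 0.125). That in 3A4 was lost without 3A4 replicate 2 or 16F8 replicate 1 (adjusted p 0.0774 to 0.109).

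PGAM1, a phosphoglycerate mutase, was higher than in parental in 47C2 (0.51 ± 0.13, adjusted p = 0.00896), 2H1 (0.48 ± 0.13, adjusted p = 0.0103) and 3A4 (0.68 ± 0.13, adjusted p = 0.000795). It was at 2401 and 2486 in 47C2, at 2820.2 and 2052 in 2H1 and at 2776 and 2718 in 3A4, against 1953 and 2308 in 16F8 and 1792 and 1649 in parental. GAPDH, whose step makes the NADH of the pathway, was higher in 3A4, with 4279 and 4523 in 3A4, 3217 and 3841 in 16F8 and 3399 and 3463 in parental. The GAPDH difference passed against parental (0.36 ± 0.11, adjusted p = 0.0141) and against 16F8 (0.32 ± 0.11, adjusted p = 0.0334). ENO1, the main enolase, passed in 2H1 against 16F8 alone, as lower (-0.39 ± 0.13, adjusted p = 0.0468), on the probe set used. The third brightest ENO1 probe set (mean signal 932) differed from parental by 0.49 in 8G12, 0.58 in 47C2, 0.48 in 45G3 and 0.49 in 16F8. The one used gave 0.15, 0.27, 0.21 and 0.31 there. In 17H5 the third brightest gave 0.35, and in the IDH1-mutant clones 0.02 to 0.17.

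Several of these calls rested on single arrays. PGAM1 in 47C2 was lost without 47C2 replicate 2 or parental replicate 2 (adjusted p 0.0656 to 0.0675). PGAM1 in 2H1 was lost without 2H1 replicate 1 or parental replicate 2 (adjusted p 0.0702 to 0.213). In 3A4, PGAM1 was also higher than in 16F8 (0.37 ± 0.13, adjusted p = 0.0486). This call was lost without either array of 8G12, 47C2, 45G3, 3A4 or parental, or 16F8 replicate 1 (adjusted p 0.0504 to 0.317) and with 7 other settings (0.054 to 0.0956). GAPDH against parental was lost without 3A4 replicate 2 or parental replicate 1 (adjusted p 0.0596 to 0.099). GAPDH against 16F8 was lost without either array of 3A4, or 16F8 replicate 1 (adjusted p 0.0726 to 0.315) and with 3 other settings (0.0612 to 0.167). The ENO1 call was lost without either array of 17H5, 47C2, 45G3, 2H1 or 3A4, or 16F8 replicate 2 (adjusted p 0.0509 to 0.283) and with 3 other settings (0.0781 to 0.213). PGK1, which makes the first ATP of the pathway, PKM, the last kinase, and LDHA, which turns pyruvate into lactate, passed in no clone with the probe sets used. PGK1 ranged from 2303 in 45G3 to 2724 in 2H1, PKM from 2584 in 17H5 to 3323 in 2H1, and LDHA from 3076 in 45G3 to 4268 in 3A4. A second PKM probe set, with a mean signal of 206, differed from parental by 0.75 in 2C11, 0.99 in 2H1, 1.03 in 3A4 and 0.83 in 47C2. The PKM probe set used gave 0.18, 0.26, 0.26 and 0.16 in these clones. In 45G3, 8G12, 17H5 and 16F8 the second one gave 0.55, 0.23, 0.07 and 0.27. A further PGK1 probe set, with a mean signal of 956, lay above parental in all 8 targeted clones, by 0.20 in 47C2 to 0.41 in 2H1. The dimmest PGK1 probe set (87.8) gave -0.16 in 3A4 to 0.54 in 16F8. GAPDH, PGK1, ENO1, ALDOA, TPI1, PKM, LDHA and PGAM1 have many processed copies in the genome, and how far their probe sets read such copies was not tested.

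The mRNAs of the HIF alpha subunits spanned 1.60-fold for HIF1A and 1.37-fold for EPAS1. HIF1A ranged from 1963 in 8G12 to 3150.3 in 2H1, and EPAS1 was highest in 47C2 (1009) and lowest in 45G3 (736). Both passed the F test (adjusted p = 0.0228 for HIF1A and 0.0344 for EPAS1). HIF1A had 3303 and 2998 in 2H1, against 2066 and 2374 in 16F8 and 2159.7 and 2763 in parental. HIF1A was higher in 2H1 than in 16F8 (0.51 ± 0.14, adjusted p = 0.0199) and not called against parental (0.37 ± 0.14, adjusted p = 0.0564). EPAS1 was higher in 47C2 than in parental (0.41 ± 0.14, adjusted p = 0.0351). The HIF1A call was lost without either array of 2H1, or 16F8 replicate 1 (adjusted p 0.0505 to 0.159) and with no variance trend (0.0518). The EPAS1 call was lost without either array of 47C2 or parental (adjusted p 0.0566 to 0.177) and with 3 other settings (0.0555 to 0.906).

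CA12 is a membrane carbonic anhydrase that helps cells export acid. Its signals were dim, with 58.0 and 60.3 in 17H5, 73.1 and 76.9 in 8G12, 72.9 and 78.0 in 47C2 and 73.0 and 51.9 in 45G3. In the IDH1-mutant clones CA12 had 59.0 and 68.8 in 2H1, 42.7 and 40.7 in 2C11 and 98.6 and 87.6 in 3A4, and 55.6 and 58.5 in 16F8 and 23.0 and 30.4 in parental in the references. All 16 arrays of the targeted clones lay above both parental arrays. CA12 rose against parental in all 8 targeted clones, from a log2 difference of 0.61 in 2C11 (adjusted p = 0.0207) up to 1.73 in 3A4 (2.16e-06), and it was 1.05 ± 0.19 in 16F8 (adjusted p = 0.000668). Against 16F8, 3A4 alone passed (0.68 ± 0.19, adjusted p = 0.0112). The CA12 call in 2C11 was lost without either array of 2C11, or parental replicate 1 (adjusted p 0.0677 to 0.174) and with 3 other settings (0.0614 to 0.159). That of 3A4 against 16F8 was lost without 3A4 replicate 1 or 16F8 replicate 1 (adjusted p 0.0669 to 0.0825) and with the highest-variance probe set (0.106). The second brightest CA12 probe set differed from parental by 0.61 in 2C11, 1.65 in 3A4 and 1.10 in 16F8.

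VEGFA is the main angiogenic factor, which draws blood vessels toward tissue short of oxygen. It had 1119 and 1385 in 17H5, 782 and 598 in 8G12, 668 and 622 in 47C2 and 361 and 341 in 45G3. VEGFA had 399 and 409 in 2H1, 315 and 456 in 2C11 and 291 and 688 in 3A4 in the IDH1-mutant clones, and 441 and 394 in 16F8 and 843 and 697 in parental in the references. The arrays of 17H5 were the highest of all, those of 47C2, 45G3, 2H1, 2C11, 3A4 and 16F8 lay below both parental arrays, and the replicates of 3A4 lay far apart. VEGFA fell against parental in 45G3 (-1.12 ± 0.26, adjusted p = 0.00417), 2H1 (-0.92 ± 0.26, adjusted p = 0.0132), 2C11 (-1.01 ± 0.26, adjusted p = 0.00895), 3A4 (-0.77 ± 0.26, adjusted p = 0.0291) and 16F8 (-0.88 ± 0.26, adjusted p = 0.0248). Against 16F8, 17H5 was higher (1.57 ± 0.26, adjusted p = 0.00131) and no other clone passed.

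The VEGFA fall in 45G3 and the rise in 17H5 against 16F8 held under all 27 alternatives. The other VEGFA calls depended on single arrays. The fall in 2H1 was lost without either array of 2H1, or parental replicate 1 (adjusted p 0.0585 to 0.097). That in 2C11 was lost without 2C11 replicate 1 or parental replicate 1 (adjusted p 0.0689 to 0.102). The VEGFA fall in 3A4 was lost without 3A4 replicate 1 or parental replicate 1 (adjusted p 0.154 to 0.602) and with no variance trend (0.0665). That in 16F8 was lost without either array of 16F8 or parental (adjusted p 0.0527 to 0.131) and with no variance trend (0.0616). The next brightest VEGFA probe set also differed from parental in 8G12 by -0.49 and in 47C2 by -0.90, where the one used gave -0.17 and -0.25.

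DDIT4 (REDD1) is an inhibitor of mTOR signalling that is induced by stress. It had 3162 and 2813 in 17H5, 3041 and 2306 in 8G12, 1546 and 1468 in 47C2 and 1683 and 1089 in 45G3. DDIT4 had 1620.4 and 1452 in 2H1, 1211 and 1328 in 2C11 and 1789.5 and 1835 in 3A4 in the IDH1-mutant clones, and 1418 and 1705 in 16F8 and 2499 and 3295 in parental in the references. 17H5 lay within the range of parental and 8G12 within or below it, and the other 5 mutant clones and 16F8 lay below both parental arrays. DDIT4 fell against parental in 47C2 (-0.93 ± 0.17, adjusted p = 0.000786), 45G3 (-1.08 ± 0.17, adjusted p = 0.000208), 2H1 (-0.90 ± 0.17, adjusted p = 0.000776), 2C11 (-1.18 ± 0.17, adjusted p = 9.13e-05), 3A4 (-0.66) and 16F8 (-0.88 ± 0.17, adjusted p = 0.00162). 17H5 alone passed against 16F8, as higher (0.94 ± 0.17, adjusted p = 0.00285), while 8G12 differed from 16F8 by 0.77 ± 0.17 (adjusted p = 0.0565) and did not pass. DDIT4 in 3A4 was lost without parental replicate 2 (adjusted p 0.0947), and its other 6 calls held throughout.

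BHLHE40 and MXI1 are HIF-induced transcriptional repressors, and MXI1 opposes MYC. BHLHE40 had 599.5 and 564 in 17H5, 478 and 544 in 8G12, 417 and 406 in 47C2 and 278 and 249.8 in 45G3. It had 358 and 360.3 in 2H1, 349 and 269 in 2C11 and 542 and 618 in 3A4 in the IDH1-mutant clones, and 379 and 319 in 16F8 and 634 and 601 in parental in the references. The arrays of 47C2, 45G3, 2H1, 2C11 and 16F8 lay well below both parental arrays, while the R140Q clones and 3A4 did not pass against parental. BHLHE40 fell against parental by 0.58 in 47C2 (adjusted p = 0.0027), 1.22 in 45G3 (3.29e-06), 0.78 in 2H1 (0.000201), 1.00 in 2C11 (2.2e-05) and 0.82 in 16F8 (0.000218). It was higher than in 16F8 in 17H5 (0.74 ± 0.13, adjusted p = 0.00169) and in 3A4 (0.73 ± 0.13, adjusted p = 0.000462). These 7 BHLHE40 calls held under all 27 alternatives.

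MXI1 had 1558 and 1589.8 in 17H5, 1527 and 1412 in 8G12, 1179 and 1162 in 47C2 and 1395 and 1114 in 45G3. It had 1268 and 1282 in 2H1, 1375 and 1426 in 2C11 and 1188 and 1215 in 3A4 in the IDH1-mutant clones, and 1622 and 1486 in 16F8 and 1704 and 1933 in parental in the references. Parental had the highest mean of the 9 clones, and every array of the targeted clones lay below both parental arrays. MXI1 fell against parental in 6 of the 7 mutant clones, by 0.63 in 47C2 (0.00023), 0.59 in 3A4 (0.000257), 0.54 in 45G3 (0.000844), 0.51 in 2H1 (0.00114), 0.37 in 2C11 (0.0125) and 0.31 in 8G12 (0.047). It did not pass in 17H5 (-0.21 ± 0.10, adjusted p = 0.211) or 16F8 (-0.22 ± 0.10, adjusted p = 0.131). Against 16F8 it was lower in 47C2 (-0.41 ± 0.10, adjusted p = 0.0242) and 3A4 (-0.37 ± 0.10, adjusted p = 0.013). The MXI1 call in 8G12 was lost without either array of 17H5, 8G12, 47C2, 2H1, 2C11, 3A4 or 16F8, or parental replicate 2 (adjusted p 0.0501 to 0.316) and with 5 other settings (0.0535 to 0.0828). The call in 2C11 was lost without 2C11 replicate 1 or parental replicate 2 (adjusted p 0.0698 to 0.124). Against 16F8, the call in 47C2 was lost without either array of 47C2, or 16F8 replicate 1 (adjusted p 0.135 to 0.197) and with no variance trend (0.0539). The MXI1 call in 3A4 against 16F8 was lost without either array of 3A4, or 16F8 replicate 1 (adjusted p 0.0588 to 0.113).

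BNIP3 and BNIP3L are mitochondrial outer membrane receptors for mitophagy. BNIP3 had 1119.8 and 1203 in 17H5, 1200.2 and 1131 in 8G12, 793 and 755 in 47C2 and 1089 and 1041 in 45G3. It had 624 and 687 in 2H1, 767 and 847 in 2C11 and 843 and 726 in 3A4 in the IDH1-mutant clones, and 1375 and 1393 in 16F8 and 837 and 863 in parental in the references. Both arrays of 16F8 were above all others, and those of 2H1 below all others. BNIP3 was higher than in parental in 17H5 (0.45 ± 0.10, adjusted p = 0.00589), 8G12 (0.45 ± 0.10, adjusted p = 0.00318), 45G3 (0.32 ± 0.10, adjusted p = 0.0177) and 16F8 (0.70 ± 0.10, adjusted p = 6.58e-05), and lower in 2H1 (-0.38 ± 0.10, adjusted p = 0.00672). Against 16F8 it fell in 47C2 (-0.84 ± 0.10, adjusted p = 2.27e-05), 2H1 (-1.08), 2C11 (-0.78) and 3A4 (-0.82). The BNIP3 call in 17H5 was lost without 17H5 replicate 2 (adjusted p 0.0755) and with the highest-variance probe set (0.0648). The call in 45G3 was lost without either array of parental, or 45G3 replicate 1 (adjusted p 0.0515 to 0.0805) and with the poly-A covariate (0.0784). The fall in 2H1 against parental was lost without 2H1 replicate 1 (adjusted p 0.0819) and with the highest-variance probe set (0.425). The BNIP3 fall in 47C2 against 16F8 was lost with the highest-variance probe set (adjusted p 0.144). The second BNIP3 probe set, with a mean signal of 220.1, gave 0.44 in 47C2 against parental, where the brighter one gave -0.13. BNIP3L ranged from 956 in 47C2 to 1296 in 8G12 and passed in no clone.

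ADM encodes adrenomedullin, a vasodilator peptide. It had 479 and 499.9 in 17H5, 499.9 and 479 in 8G12, 453 and 444 in 47C2 and 568 and 622 in 45G3. It had 705 and 716 in 2H1, 738 and 856 in 2C11 and 550.3 and 592 in 3A4 in the IDH1-mutant clones, and 680.3 and 637 in 16F8 and 513 and 493 in parental in the references. The R132H clones and 16F8 were the highest. ADM was higher than in parental in 2H1 (0.50 ± 0.10, adjusted p = 0.000905), 2C11 (0.66 ± 0.10, adjusted p = 9.19e-05) and 16F8 (0.39 ± 0.10, adjusted p = 0.00861), and lower than in 16F8 in 47C2 (-0.55 ± 0.10, adjusted p = 0.00176) and 17H5 (-0.43 ± 0.10, adjusted p = 0.0118). ADM in 16F8 was lost without 16F8 replicate 1 or parental replicate 2 (adjusted p 0.0636 to 0.071). The ADM call in 17H5 was lost without either array of 17H5, or 16F8 replicate 1 (adjusted p 0.0644 to 0.0975).

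NDRG1, a stress-induced protein named as a gene regulated downstream of N-myc, had 1573 and 1349.6 in 17H5, 1314 and 1008 in 8G12, 1212 and 1258 in 47C2 and 1661 and 1206 in 45G3. It had 1205 and 1326 in 2H1, 558 and 712 in 2C11 and 1793 and 2255 in 3A4 in the IDH1-mutant clones, and 983 and 1380.2 in 16F8 and 1255 and 2133 in parental in the references. 2C11 was below every other array, and the parental replicates lay far apart. NDRG1 fell in 2C11 by 1.37 ± 0.22 against parental (adjusted p = 0.000205) and by 0.88 against 16F8 (0.0449), and it was higher in 3A4 than in 16F8 (0.79 ± 0.22, adjusted p = 0.0138). The fall against parental held under all 27 alternatives. The NDRG1 fall against 16F8 was lost without either array of 17H5, 47C2, 2H1, 2C11 or 3A4, or 16F8 replicate 2 (adjusted p 0.0547 to 0.336) and with 4 other settings (0.0552 to 0.114). The rise in 3A4 was lost without 3A4 replicate 2 or 16F8 replicate 1 (adjusted p 0.148 to 0.165). ANKRD37, an ankyrin repeat protein, passed in 2H1 against 16F8 alone (-0.87 ± 0.26, adjusted p = 0.0291), with 99.2 and 161 in 2H1 and 284 and 191 in 16F8. That call was lost without 2H1 replicate 1 or 16F8 replicate 1 (adjusted p 0.259 to 0.315) and with the mean of all probe sets or no variance trend (0.0628 to 0.502).

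Genotypes were compared with the clone as the replicate. No member passed in the 7 mutant against the 2 wild-type clones (0% of all genes passed in limma's test). At an unadjusted p under 0.05 stood 2 of 32 members and 864 of all genes. The members were MXI1 (1335 ± 149.7 in mutant and 1686 ± 187 in wild-type clones, SD over 7 and 2 clones, difference -0.34 ± 0.12, adjusted p = 0.682) and CA12 (0.71 ± 0.30, adjusted p = 0.682). For no member were the 7 mutant clone means all on 1 side of both wild-type means, which 5.83% of all genes showed. For the 4 IDH2-mutant against the wild-type clones the count was again 0 (0% of all genes), with 2 members and 633 of all genes at an unadjusted p under 0.05. CA12 alone had its 4 IDH2-mutant means above both wild-type means (12.5% of all genes did not overlap).

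For the 3 IDH1-mutant against the 2 wild-type clones no member passed either (0% of all genes), with 6 members and 1924 of all genes at an unadjusted p under 0.05. The clone means did not overlap for 11 members (30.8% of all genes): EPAS1, HIF1A, LDHA, PFKFB3, PGK1 and PKM were higher and ALDOC, BNIP3, BNIP3L, HK2 and MXI1 lower in the IDH1-mutant clones. ALDOC averaged 189.6 ± 43.9 in IDH1-mutant and 568 ± 146 in wild-type clones (SD, n = 3 and 2), a difference of -1.58 ± 0.27, adjusted p = 0.134. HK2 averaged 944 ± 166 in IDH1-mutant and 1402 ± 155 in wild-type clones, a difference of -0.58 ± 0.16, adjusted p = 0.22. With the arrays as samples and the clone as a random block, ALDOC (adjusted p = 0.00113) and HK2 (0.0287) passed, and without the clone 2C11 ALDOC passed (-1.71, 0.0404). The random-block model takes 1 correlation between replicate arrays for all genes. Its error can be too small for genes whose clones vary more than most, and the clones still numbered 3 and 2.

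Between the mutated genes, no member passed in the 4 IDH2-mutant against the 3 IDH1-mutant clones (0.00798% of all genes, a single gene, passed), with 11 of 32 members and 1652 of all genes at an unadjusted p under 0.05. The clone means did not overlap for 7 members (12.8% of all genes): ALDOC, ENO1, ENO2, HK2 and PFKFB4 were higher and LDHA and PKM lower in the IDH2-mutant clones. ALDOC averaged 515 ± 126 in IDH2-mutant and 189.6 ± 43.9 in IDH1-mutant clones, a difference of 1.42 ± 0.23, adjusted p = 0.134. HK2 averaged 1329.5 ± 165 and SLC2A3 546 ± 168 in IDH2-mutant clones, against 944 ± 166 for HK2 and 220.4 ± 204 for SLC2A3 in IDH1-mutant clones. With the clone as a random block on the arrays, ALDOC (adjusted p = 0.00116), SLC2A3 (0.0235) and HK2 (0.0465) passed, and without the clone 2C11 ALDOC passed (1.55, 0.0488). The limit of the random-block model given above applies to these values too.

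The clones of 1 genotype also differed among themselves. Of 96 member tests in the 3 pairs, 9 passed (9.38%), against 3.64% of all tests. Between the R132H clones, 2H1 was higher than 2C11 in SLC2A3 and NDRG1 (1.00 ± 0.22, adjusted p = 0.0128) and lower in HK2 (-0.42 ± 0.11, adjusted p = 0.029), so that 2 members were higher (2.14% of all genes) and 1 lower (2.46%), 3 in all against 4.6% of all genes. This NDRG1 call was lost without either array of 2H1, or 2C11 replicate 1 (adjusted p 0.0722 to 0.138). This HK2 call was lost without either array of 2H1, or 2C11 replicate 1 (adjusted p 0.116 to 0.257) and with 3 other settings (0.0629 to 0.442). Between the R140Q clones, 17H5 was lower than 8G12 in SLC2A1 alone (-0.35 ± 0.09, adjusted p = 0.049), against 3.37% of all genes. This SLC2A1 call was lost without either array of 17H5, 8G12, 47C2, 2H1, 2C11, 3A4, 16F8 or parental (adjusted p 0.0514 to 0.262) and with 5 other settings (0.0513 to 0.238). Between the R172K clones 5 members passed, against 2.94% of all genes. 47C2 was lower than 45G3 in SLC2A3, SLC2A1 (-0.58 ± 0.09, adjusted p = 0.00222), BNIP3 (-0.46 ± 0.10, adjusted p = 0.0137) and ADM (-0.40 ± 0.10, adjusted p = 0.0307) and higher in BHLHE40 (0.64 ± 0.13, adjusted p = 0.0105). In the R172K pair, SLC2A1 was lost without 47C2 replicate 1 (adjusted p 0.0672) and with the highest-variance probe set (0.12). BNIP3 was lost without either array of 47C2 (adjusted p 0.0913 to 0.166) and with the highest-variance probe set or the mean of all probe sets (0.0542 to 0.516). ADM was lost without either array of 47C2, or 45G3 replicate 2 (adjusted p 0.176 to 0.237) and with the highest-variance probe set or no variance trend (0.0508 to 0.052). BHLHE40 was lost without either array of 47C2, or 45G3 replicate 2 (adjusted p 0.0846 to 0.115) and with the mean of all probe sets (0.118). The pair calls fell to 4 without 47C2 replicate 1 and to 5 without 47C2 replicate 2.

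Genes of the same pathways outside the list were counted from 3 further lists. Of 31 tested genes from a list of 35 other hypoxia-induced genes, 24 differed among the 9 clones, of 20 tested from 30 other glycolysis genes 12 did, and of 10 tested from 11 genes of HIF oxygen sensing 4 did, against 52.4% of all genes. Of the 31 other hypoxia-induced genes tested against 16F8, 1 was higher and 3 lower in 17H5 (4.42% and 4.13% of all genes), 1 was higher and 0 lower in 8G12 (0.526% and 0.104% of all genes), 1 was higher and 4 lower in 47C2 (2.28% and 4.13% of all genes) and 1 was higher and 0 lower in 45G3 (0.949% and 1.22% of all genes). By the same count, 3 were higher and 5 lower in 2H1 (6.44% and 10% of all genes), 1 was higher and 3 lower in 2C11 (0.981% and 1.28% of all genes) and 7 were higher and 7 lower in 3A4 (10.3% and 16% of all genes). Of the same 31 against parental, 7 were higher and 4 lower in 17H5 (6.89% and 4.97% of all genes), 5 were higher and 3 lower in 8G12 (11.4% and 7.05% of all genes), 4 were higher and 5 lower in 47C2 (14.2% and 13.8% of all genes) and 7 were higher and 5 lower in 45G3 (15.1% and 14.7% of all genes). By the same count, 8 were higher and 7 lower in 2H1 (14.7% and 16.3% of all genes), 6 were higher and 5 lower in 2C11 (13.4% and 12.5% of all genes), 8 were higher and 3 lower in 3A4 (17.6% and 19.6% of all genes) and 9 were higher and 3 lower in 16F8 (12.4% and 9.57% of all genes). Against parental, genes of this list were called in both directions in each of the 8 targeted clones. Of the 20 other glycolysis genes tested against 16F8, 2 were higher and 0 lower in 17H5, and 1 was higher and 0 lower in 8G12. The counts were 2 and 2 in 2H1, 3 and 2 in 3A4, and 0 and 0 in 47C2, 45G3 and 2C11. Against parental, the higher and lower counts were 1 and 1 in 17H5, 2 and 2 in 8G12 and 5 and 3 in 47C2. They were 4 and 4 in 45G3, 3 and 4 in 2H1, 4 and 3 in 2C11, 4 and 4 in 3A4 and 4 and 2 in 16F8. The shares of all genes are those given above for the same clone and reference.

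PDK1, CXCR4, TIGAR, HMOX1 and EDN1 are described because they passed with 1 sign against both references in at least 2 mutant clones. Those calls are therefore how they were picked. Stability under the alternatives was examined for members only, so not for these genes or the oxygen sensors below. PDK1, the kinase that shuts off pyruvate dehydrogenase and a HIF target, had 688 and 760 in 17H5, 548 and 694 in 8G12, 451 and 438 in 47C2 and 466 and 444 in 45G3. It had 266 and 279 in 2H1, 298 and 296 in 2C11 and 471 and 326 in 3A4 in the IDH1-mutant clones, and 688 and 642 in 16F8 and 689.6 and 599.7 in parental in the references. Both R172K clones and all IDH1-mutant clones lay below the 4 reference arrays. PDK1 fell against both references in 47C2, 2H1, 2C11 and 3A4. In 2H1 the difference was -1.23 ± 0.15, adjusted p = 6.41e-06 against parental and -1.28 ± 0.15, adjusted p = 8.37e-06 against 16F8, and in 47C2 it was -0.53 ± 0.15, adjusted p = 0.0114 against parental and -0.58 ± 0.15, adjusted p = 0.0241 against 16F8. The differences from parental were -1.11 in 2C11 and -0.71 in 3A4. In 45G3 PDK1 passed against parental alone (-0.50 ± 0.15, adjusted p = 0.016).

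CXCR4, a chemokine receptor induced by hypoxia, averaged 76.0 in 17H5, 192 in 8G12, 259.8 in 47C2, 443 in 45G3, 601 in 2H1, 233 in 2C11 and 371 in 3A4, against 130.1 in 16F8 and 107 in parental. It passed as higher against both references in 47C2, 45G3, 2H1, 2C11 and 3A4, in 2H1 against parental by a log2 difference of 2.47 ± 0.21, adjusted p = 1.29e-07. TIGAR, which lowers the phosphofructokinase activator, and HMOX1, heme oxygenase, were higher against both references in 2H1 and 3A4. In 3A4 TIGAR had 758 and 740, against 454 and 409.6 in 16F8 and 332 and 334 in parental, and HMOX1 averaged 224, against 84.7 in 16F8 and 101 in parental. EDN1, endothelin, was called higher in the same clones from signals between 4.8 and 24.3, close to the array medians.

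Among the oxygen sensors, EGLN3, itself a HIF target, averaged 82.5 in 17H5, 82.7 in 8G12, 49.7 in 47C2, 80.3 in 45G3, 47.5 in 2H1, 70.5 in 2C11 and 31.9 in 3A4, against 83.6 in 16F8 and 45.8 in parental. EGLN3 was higher than in parental in 17H5 (0.83 ± 0.19, adjusted p = 0.00816), 8G12, 45G3, 2C11 and 16F8 (0.83 ± 0.19, adjusted p = 0.00413), and lower than in 16F8 in 47C2, 2H1 and 3A4 (-1.32 ± 0.19, adjusted p = 6.54e-05). EGLN1, the main sensor, was higher than in parental in all 3 IDH1-mutant clones, in 2H1 (0.64 ± 0.09, adjusted p = 6.02e-05), 2C11 (0.35) and 3A4 (0.50), and higher than in 16F8 in 2H1 (0.39 ± 0.09, adjusted p = 0.00944). VHL was lower in 2C11 than in parental (-0.95 ± 0.23, adjusted p = 0.00599), and ARNT, the constant partner, lower in 3A4 than in parental (-0.35 ± 0.11, adjusted p = 0.0152). HIF1AN, the asparaginyl hydroxylase, passed in no clone, and EGLN2 had signals between 8.9 and 36 and passed against parental in 47C2, 45G3, 2H1 and 3A4, as higher.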

How the data were processed

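Gene expression was measured on 18 one-colour arrays of 9 HCT116 clones, 2 per clone, grouped by the clone named in the titles. The deposited values are probe set intensities on a linear scale, from 0 to 8500.9, made with MAS5 per the submitters' processing notes; the sources used here give no version. The arrays share 1 scale, since averaging each over all but the lowest and highest 2% of its probe sets gave 150 every time. Arrays give no counts, and their small number limits the precision.

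The offset of 2.2 is the 25th percentile of all values. Of 54675 probe sets, 41091 had 1 gene symbol in the platform annotation, and the rest, with 1801 of several genes and 62 AFFX controls, stayed out of the tests. The filter kept a gene if, in at least 1 clone, neither array fell below its own median. All genes kept were fitted with limma 3.58.1 (lmFit, then eBayes with trend) in R 4.3.3. Benjamini-Hochberg adjustment ran over the genes of each contrast, at a threshold of 0.05, on two-sided tests. Clones were compared on the 18 arrays (9 residual degrees of freedom) and genotypes on 9 clone means (7, or 6 with 3 classes). Errors of differences are standard errors. Both models were also run on simulated data with independent normal noise, and no result given here rests on that run. Replicate numbers did not pair the arrays: the deviations of replicate 1 in 36 pairs of clones correlated at -0.352 to 0.383. Alternatives covered the offset, the filter, the probe set rule, quantile normalization, the variance trend, blocks and each array left out; an offset of 50 and the poly-A covariate were added after seeing the data.

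The members and lists were chosen with earlier results of these data known. Genes are named by rule: all members, EGLN1, EGLN2, EGLN3, HIF1AN, VHL and ARNT, and up to 10 genes of the other hypoxia and glycolysis lists that passed in at least 2 mutant clones with 1 sign against both references, of which 5 qualified. Promoter windows are from RefSeq (GRCh38.p14). Plots used matplotlib 3.10.9 under Python 3.11.15.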

Additional observations from a re-analysis of the deposited data

Results flagged for a closer look

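PFKL in 3A4 had a signal of 50 (mean of 2 arrays) on the probe set used. Among the 7 mutant clones its gap to the nearest clone took up 0.572 of the whole range, more than is usual for 7 values. The second PFKL probe set, with a mean signal of 72.3, did not have 3A4 as the lowest clone. It differed from parental by -0.34 in 2H1, -0.29 in 47C2 and -0.27 in 3A4. The gap was examined for all 32 members on the probe sets used, among the 7 mutant clones and again among the 4 IDH2-mutant clones. Chance gives such a gap in about 1 of 20 groups, so a few would arise by chance among this many. PFKFB4 lay above the wild-type mean in all 4 IDH2-mutant clones and below it in all 3 IDH1-mutant clones, a difference of 0.56 on the log2 scale between the IDH2-mutant and the IDH1-mutant clones. That difference did not pass limma's test over all genes (adjusted p = 0.309). The wild-type mean lies between references that differ, with signals of 59.75 in parental and 109.45 in 16F8. The IDH1-mutant clones, at 66.45 to 73.1, lay above parental, and 17H5 (97.05) and 47C2 (86.25) lay below 16F8.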

How the results depend on the processing

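Of 128 member calls in single clones, 69 held under all 27 alternatives, 59 were lost in some, 56 of them on leaving out an array, and 2 reversed. The reversed ones were HK2 in 3A4 against 16F8 (0.10) and in 47C2 against 16F8 (0.41), with the highest-variance probe set, which is a dim one. That probe set choice left 4 calls between clones of 1 genotype in place of 9. The poly-A level as a covariate, added after seeing the data, gave 65 calls against 16F8 in place of 42 and 19 between clones of 1 genotype. With the clone as a random block on the arrays, 2 members passed for IDH1-mutant against wild-type clones and 3 for IDH2-mutant against IDH1-mutant clones, in place of 0. That model takes 1 correlation for all genes, so its error can be too small for genes whose clones vary more than most.

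Leaving out each array or clone gave 18 to 25 members differing among the clones (22 with all), 66 to 84 calls against parental (77), 24 to 51 against 16F8 (42, lowest without 16F8 replicate 1) and 4 to 10 between clones of 1 genotype (9). It gave 0 to 0 members for mutant and for IDH2-mutant against wild-type clones, 0 to 1 for IDH1-mutant against wild-type and 0 to 1 for IDH2-mutant against IDH1-mutant clones, the 1 being ALDOC without 2C11. The replicate numbers share no known pairing. With the replicate block the counts were 23 among clones, 77 against parental, 42 against 16F8, 8 between clones of 1 genotype, 0 for mutant and 0 for IDH2-mutant against wild-type clones, 2 for IDH1-mutant against wild-type (ALDOC and HK2) and 2 for IDH2-mutant against IDH1-mutant clones (ALDOC and SLC2A3). The genotype counts with this block also took the arrays as samples and the clone as a random block. For dim members (CA12, PFKL, PFKFB4) the offset bears on the size of a difference. The cause of these changes was not tested.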
